A study of Mus musculus with 3 samples.

Results

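The nuclear-encoded genes of oxidative phosphorylation were followed through T cell subsets, NK cells, macrophages and monocytes of KP1 tumors, a mouse model of small-cell lung cancer. Members were taken by symbol: the Ndufa, Ndufb, Ndufc, Ndufs and Ndufv genes, Sdha to Sdhd, and symbols that begin with Uqcr, with Cox4 to Cox8 or with Atp5. This gave 88 of the 33696 genes in the files, with 38 in complex I, 4 in complex II, 8 in complex III, 21 in complex IV and 17 in complex V. Ndufa4 and Ndufa4l2 were counted in complex IV, to which their proteins belong in spite of the name. The 13 protein-coding genes of the mitochondrial genome itself (mt- genes) served as the contrast. The rule itself uses symbols and no measured value.

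Complexes I to IV of the inner mitochondrial membrane pass electrons from NADH and succinate to oxygen, and complexes I, III and IV pump protons as they do so. Complex V, the ATP synthase, lets the protons flow back and makes ATP. All subunits of complex II are encoded in the nucleus, whereas the other 4 complexes are built from subunits of both genomes, so their assembly needs mitochondrial ribosomes. T cells and NK cells that leave rest are known to expand their mitochondria, and macrophages and monocytes are known to shift between glycolysis and respiration.

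Wild-type F1 mice carried subcutaneous tumors from 500000 KP1 cells, and live CD45+ cells were sorted on day 19. The 3 groups received mono-IL-10, IL-10/2-Trikine, or IL-10/2-Trikine + anti-PD-1. Cytokine doses of 3 µg were spaced by a day without treatment, the first on day 7 and the last on day 19, and the antibody against PD-1 (clone RMP1-14) was dosed at 200 µg each on day 7, day 11, day 15 and day 19. The titles and treatment labels name the antibody for the combination alone, whereas the wording of the protocol could also be read as covering all groups. Each group was 1 library, there was no untreated library, and the number of mice pooled in a library is not given in the sources used here. Treatments were therefore compared without a test. Cell classes, which were found in all 3 libraries, were compared over the libraries, so that a p-value measures how constant a difference was over 3 libraries of different treatment. Although the labels name the cells T cells, all 3 libraries also held macrophages, monocytes and other CD45+ cells with their defining markers (C1qa stood between 3375 and 3951 CPM, UMIs per 1000000 UMIs of a class, in resting macrophages).

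The files held between 158570946 and 197176873 UMIs per library, and between 22235 and 26967 barcodes per library passed the cell filters, with median UMIs per cell of 4774, 5562 and 4273 in the mono-IL-10, IL-10/2-Trikine and combination libraries. Values below are given in that order. Barcodes under 100 UMIs, which hold mostly free RNA, carried the members at 1.23, 1.55 and 1.49% of their UMIs and the mt- genes at 1.88, 3.62 and 1.0%, so free RNA held the members at shares close to those of cells. The 3 pairs of libraries shared 137, 161 and 180 barcodes. Cells were clustered without the members, the mt- genes, ribosomal genes and cell cycle genes, and classes were named from markers. Cells counted as cycling when at least 0.5% of their UMIs came from 40 S and G2/M genes, and as resting below 0.25%. In each class 82 to 85 of the 88 members had a UMI, and 73 to 81 had at least 100. In no class did a UMI map to Cox8b or Ndufb11b, and Cox7b2 and Cox8c each had 1 UMI in all, both in cycling CD4 T cells. Cox8b, known from heart and skeletal muscle, was thus at 0 here and Cox7b2 and Cox8c near it. Reads of Cox5b and Cox5b-ps, of Ndufb4 and Ndufb4b, and of Ndufb11 and Ndufb11b may have been split between near-identical copies, so the values of these genes are uncertain.

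Promoter sequences were read for 70 of the 88 members from a RefSeq table on GRCm38.p6 that gives 250 bases before and 50 after each start. Stretches are shown for a few members on which the results below turn, and only where a motif lay in the 120 bases before the start. In cycling over resting CD8 T cells Uqcrh was among the lowest members and Ndufa5 was the highest. Sdha and Sdhd are subunits of 1 enzyme whose cycling ratios were unlike. Each stretch is the 120 bases before the start, read 5′ to 3′ along the gene. Capitals mark the NRF1 motif (GCGC, any base, then TGCGC) and CCGGAAG, the core of the ETS motif, on either strand.
Uqcrh, chr4:116075071-116075190, minus strand: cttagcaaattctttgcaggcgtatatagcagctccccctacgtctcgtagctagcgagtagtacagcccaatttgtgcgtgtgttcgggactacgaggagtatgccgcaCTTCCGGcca
Ndufa5, chr6:24527691-24527810, minus strand: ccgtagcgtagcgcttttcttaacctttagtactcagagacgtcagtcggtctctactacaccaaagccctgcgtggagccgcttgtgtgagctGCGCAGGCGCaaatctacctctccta
Sdha, chr13:74350241-74350360, minus strand: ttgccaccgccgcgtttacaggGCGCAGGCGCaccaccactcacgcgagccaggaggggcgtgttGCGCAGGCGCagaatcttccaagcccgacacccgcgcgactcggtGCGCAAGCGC
Sdhd, chr9:50603850-50603969, minus strand: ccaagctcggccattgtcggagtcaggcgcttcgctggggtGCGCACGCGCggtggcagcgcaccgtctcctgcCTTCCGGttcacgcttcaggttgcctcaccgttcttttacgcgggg

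Cox7a2l, the member with the lowest ratio of cycling over resting CD8 T cells, held none of the motifs searched in its promoter. Uqcrh held the ETS core 10 bases before its start and Ndufa5 the NRF1 motif 26 bases before. Sdha held the NRF1 motif at 98, 55 and 10 bases before the start, and Sdhd held the NRF1 motif at 79 and the ETS core at 46. Among the 70 members with a promoter, 17 (24.3%) held the NRF1 motif, against 5.19% of 27025 genes with a promoter in the table. The ETS core was also in 17 members (24.3%, against 9.93%), and AAGATGGC, a YY1 motif, in 10 (14.3%, against 3.19%). Any of these 3 was found in 38 members (54.3%, against 16.4%). TCAAGGTCA, the motif of the estrogen-related receptors, nuclear receptors that act with PGC-1 coactivators, was in 2 (2.86%, against 0.466%). These were Atp5g3 and Sdhd, while Sdha held no match, and the stretches above do not mark this motif. The E-box CACGTG, bound by Myc and Max, was in 6 (8.57%, against 8.09%), close to its share among all genes. Both strands were searched, and motifs could overlap. Among those with a promoter, 53 members were higher, 3 lower and 11 not called in cycling CD8 T cells. The NRF1 motif was in 26.4, 33.3 and 18.2% of these groups and the ETS core in 24.5, 33.3 and 27.3%. A match is a description of letters only.

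The summed share of the 88 members in all UMIs of a class ranged from 1.09 to 2.01% over the classes and libraries. In resting CD8 T cells the members held 1.44, 1.59 and 1.38% of UMIs, in resting Foxp3-negative CD4 T cells 1.37, 1.54 and 1.52%, and in resting regulatory T cells 1.4, 1.56 and 1.52%. Naive-like T cells, gated by UMIs of naive T cell markers, Ccr7 and Lef1 among them, and by no UMI of Gzmb, Pdcd1, Lag3 and Havcr2, had the lowest values with 1.10, 1.24 and 1.09%. Resting NK cells held 1.246, 1.48 and 1.24%, resting macrophages 1.36, 1.44 and 1.33%, and monocytes 1.53, 1.64 and 1.67%. In the order of the means, resting CD8 T cells, CD4 T cells, regulatory T cells and macrophages overlapped over the 3 libraries, whereas the naive-like cells lay below all resting T subsets in each library and monocytes lay above macrophages in each. The mt- genes did not follow this order. Their summed share was highest in naive-like T cells, at 2.13, 1.74 and 1.81%, against 1.48, 1.43 and 1.42% in resting CD8 T cells. As a mean over cells this rank did not hold in each library. Plasmacytoid dendritic cells then stood at 2.38% against 2.18% in naive-like cells of the mono-IL-10 library, and at 2.03% against 1.79% in the combination library.

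**Figure D1:**
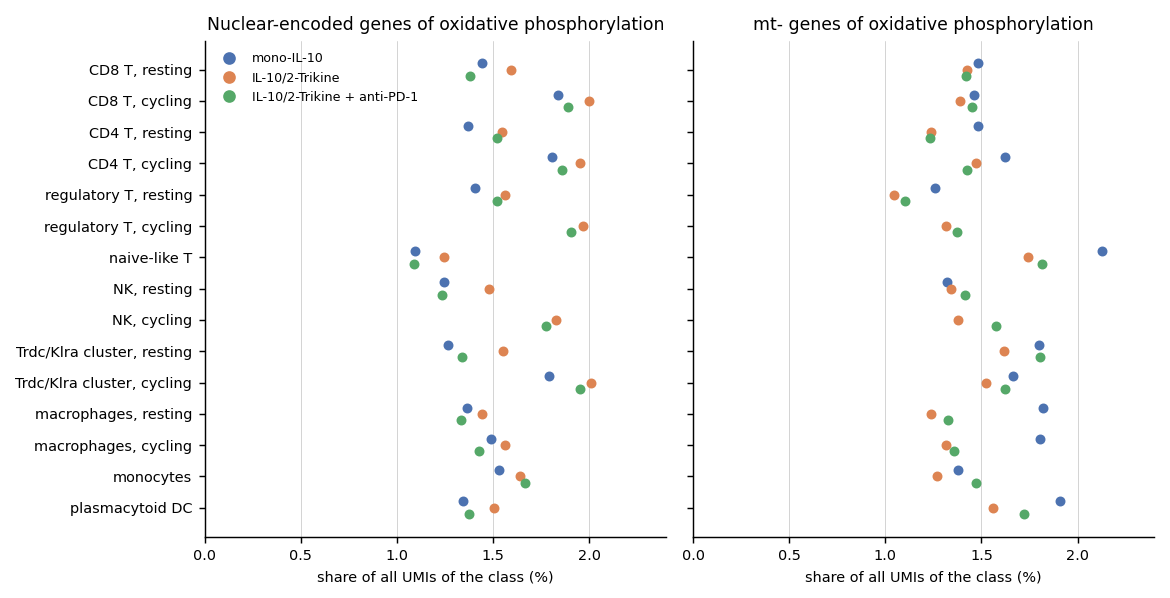
Share of all UMIs of a class held by the 88 members (left) and by the 13 mt- genes (right), in percent on the horizontal axis, for each class and library; each point is 1 library. Cycling lymphocyte classes sit at 1.78 to 2.01% for the members, right of every resting class, while the mt- shares of cycling and resting CD8 T cells overlap and naive-like T cells lie farthest right of all classes in the mt- panel in each library.

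Most members were higher in cycling than in resting CD8 T cells when all cells were used, but not in cells of 5000 to 10000 UMIs alone. Their summed share was 1.84, 2.00 and 1.89% in cycling cells, above 1.44, 1.59 and 1.38% in resting ones, with 530, 1492 and 675 cycling cells against 3114, 2507 and 3309 resting ones. Of 80 members tested, 64 were higher and 3 lower in cycling CD8 T cells (adjusted p under 0.05, edgeR quasi-likelihood test on UMI sums with library as a block). The background was 34.3% of all genes tested called higher and 34.7% called lower. The median member differed by 0.54 on the log2 scale and the median of all genes by -0.03. In that depth range 21 of 78 were higher (background 22.5%) and 7 lower, with a median of 0.05. Complex by complex, 29 of 36 tested members of complex I rose, 3 of 4 of complex II, 7 of 8 of complex III, 11 of 15 of complex IV and 14 of 17 of complex V, and the medians ran from 0.41 in complex IV to 0.75 in complex II.

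Within complex I, Ndufa5, an accessory subunit of the peripheral arm, stood at 39.8, 38.5 and 36.4 CPM in resting and at 79.0, 90.9 and 79.4 in cycling CD8 T cells. The groups did not overlap, and Ndufa5 had the highest log2 ratio of all members tested (1.21 ± 0.07 (SE of the fit, n = 3 libraries), adjusted p = 1.2e-13). Ndufa12, another accessory subunit, went from 62.3, 65.1 and 56.4 to 124, 145 and 128 (log2 ratio 1.20 ± 0.07, adjusted p = 1.8e-14). The flavoprotein subunit Ndufv1, which takes electrons from NADH, went from 39.4, 39.9 and 37.6 to 64.1, 70.9 and 76.8 (0.95 ± 0.08). The core iron-sulfur subunit Ndufs1 did not pass the test, at 50.1, 50.8 and 48.7 in resting and 53.4, 53.2 and 48.1 in cycling cells (0.14 ± 0.07, adjusted p = 0.088).

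Complex II, the succinate dehydrogenase shared with the citrate cycle, was uneven. Sdhb, Sdhc and Sdhd, the iron-sulfur subunit and the membrane anchors, rose with log2 ratios of 0.80, 0.71 and 0.79. Sdha, the flavoprotein that holds the catalytic site, stood at 74.2, 63.2 and 70.3 CPM in resting and at 72.9, 72.6 and 65.5 in cycling CD8 T cells, which overlapped (log2 ratio 0.12, adjusted p = 0.13). In complex III, the core protein Uqcrc1 and the Rieske protein Uqcrfs1 rose by 0.70 and 0.54. In complex IV, Cox5a went from 513, 574 and 494 to 843, 932 and 889 CPM (0.85 ± 0.06), whereas Cox4i1, the common isoform of subunit IV, was called higher with a ratio of only 0.14. In the ATP synthase the catalytic beta subunit Atp5b (1.01) and the genes of the membrane c ring Atp5g1 (0.97), Atp5g3 (0.87) and Atp5g2 (0.64) all rose.

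Against this pattern, Cox7a2l, a factor that joins complexes III and IV into supercomplexes, fell. It stood at 369, 401 and 387 CPM in resting and at 188, 195 and 217 in cycling CD8 T cells, with no overlap (log2 ratio -0.85 ± 0.06, adjusted p = 8.9e-12). Uqcrh, the hinge protein of complex III, went from 517, 532 and 552 to 358, 357 and 358 (-0.48 ± 0.06), and Ndufa6, an accessory subunit of complex I, from 218, 255 and 221 to 152, 167 and 150 (-0.47 ± 0.06). Cox7a2, the ubiquitous paralog of Cox7a2l that sits in complex IV itself, went the other way, from 200, 222 and 183 to 311, 313 and 306.

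The same members were at the low end in the other lineages. Foxp3-negative CD4 T cells gave 64 members higher and 3 lower of 81 tested (background 31.9% higher and 30.4% lower, median 0.52), and regulatory T cells gave 63 higher and 3 lower of 78 (background 30% higher, median 0.53). NK cells gave 47 higher and 1 lower of 77 (background 20.2% higher, median 0.52). These counts fell with the method: after thinning each cell to 1000 UMIs, 29 were higher in regulatory T cells and 8 in NK cells, and DESeq2 called 48 and 18. No share of all genes called is given for these settings, so a change particular to the members cannot be read from them. Nor is the share of all genes called lower given for regulatory T and NK cells in any setting. The regulatory T and NK comparisons rest on the IL-10/2-Trikine and combination libraries, since the mono-IL-10 library had only 39 and 16 cycling cells of these classes, under the minimum of 50. There, 1 residual degree of freedom is left and the spread was shared over genes. Over the CD8, CD4 and regulatory T cells, 61 of the 78 members tested in all 3 were higher in each and 3 were lower in each, namely Cox7a2l, Ndufa6 and Uqcrh. The 3 lower calls in regulatory T cells became 0 after thinning, and DESeq2 kept only that of Cox7a2l there. With NK cells added, 46 of 77 were higher in all 4, a count that rests on the 47 calls of edgeR in NK cells. The share of all genes called alike in each of these lineages is not given, so calls shared between lineages stand here without a background. By edgeR without thinning, Cox7a2l was called lower in all 5 lineages, with log2 ratios of -0.61 in CD4, -0.51 in regulatory T, -0.65 in NK cells and -0.46 in macrophages. The call was lost in NK cells with DESeq2 and in regulatory T cells after thinning (-0.36), with the direction kept. Cox7a2l, Uqcrh, Ndufa6 and Ndufa13 were among the 5 lowest members in every lineage.

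**Figure D2:**
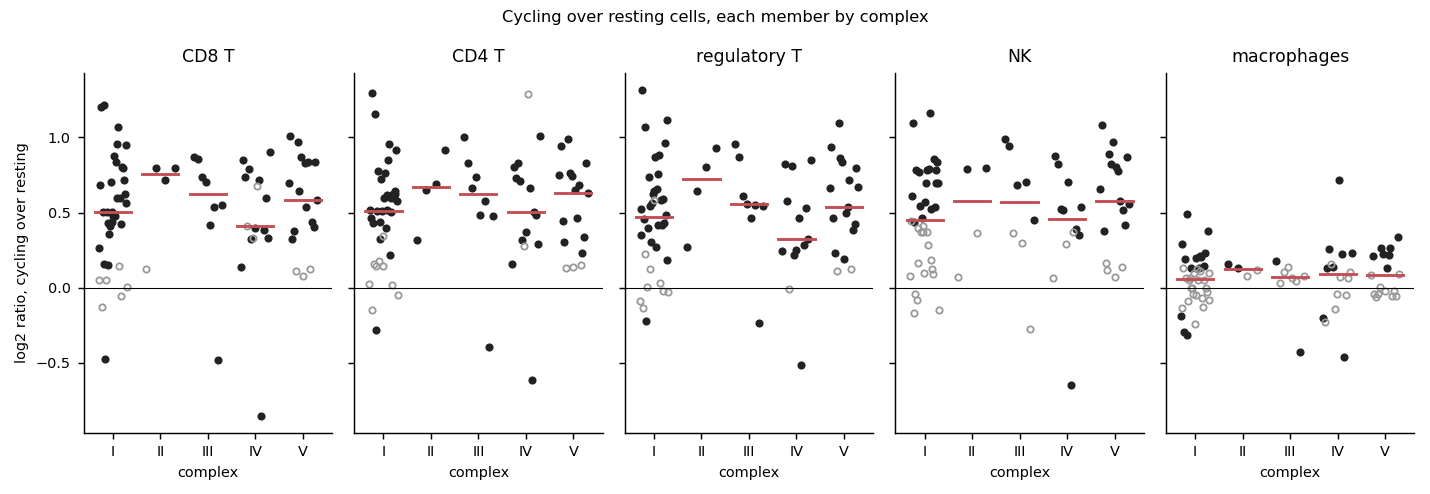
Log2 ratio of cycling over resting cells (vertical axis) for each tested member, arranged by complex on the horizontal axis, in 5 lineages; filled points passed an adjusted p of 0.05, open points did not, and red bars are medians. Medians lie well above 0 in the T and NK cells and near 0 in macrophages, with at least 1 filled point below 0 in every panel.

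With all cells used, the members moved less with cycling in macrophages than in CD8 T cells, by the test of the difference between the lineages. The summed share was 1.36, 1.44 and 1.33% in resting and 1.49, 1.56 and 1.42% in cycling macrophages. Of 81 members tested, 27 were higher and 6 lower, beside a background of 24.6% higher and 25.1% lower, with a median of 0.08. DESeq2 called 12 higher and 5 lower, library totals as scaling 41 and 5, a fit without the library block 6 and 3, and the fit without the combination library 18 and 6. The balance turned with a cycling limit of 1% (1 higher and 17 lower) and in cells of 5000 to 10000 UMIs (2 higher and 24 lower). In that depth range the background was 22.5% higher and 24.0% lower. For the other settings no background is given, so a change particular to the members cannot be read from them. The 6 that fell were Cox7a2l, Uqcrh (317, 306 and 278 to 256, 234 and 209 CPM), Ndufa6, Ndufa13, Cox4i1 and Ndufa1. Ndufa5 rose here too (0.49 ± 0.06), as did Ndufv1 (0.38), the testis-type subunit Cox6b2 (0.72, at 2.90 to 8.78 CPM) and Atp5o of the stalk of the ATP synthase (0.34). The difference between lineages was tested as an interaction. Relative to CD8 T cells the cycling ratio in macrophages was lower for 57 and higher for 3 of 83 members, against a background of 15.6% of genes lower. The share of all genes called higher is not given for this interaction. The median difference was -0.34 for the members and 0.14 for all genes, so that the members lay lower still relative to all genes. Ndufa12 differed most (-0.95 ± 0.09), followed by Atp5g1 (-0.84) and Ndufc2 (-0.73), while the difference for Cox7a2l was 0.52 ± 0.08 (adjusted p = 2.9e-05) and turned to -0.21 (adjusted p = 0.18) in cells of 5000 to 10000 UMIs. In that depth range 23 of 80 members had a lower and 0 a higher ratio in macrophages, beside a background of 12.8% of genes lower. The same test in NK cells called 0 of 80 members, with 6 at an unadjusted p under 0.05, against a background of 2.49% of genes in either direction. DESeq2 was run on the separate NK comparison and not on this interaction.

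Other genes of mitochondrial metabolism gave the following counts. In cycling CD8 T cells 72 of 78 tested mitochondrial ribosomal protein genes were higher and 2 lower (median 0.76). The background in CD8 T cells was 34.3% of all genes higher and 34.7% lower. Of the 13 citrate cycle genes 11 were higher and 0 lower (median 0.51). Of the 45 assembly factors tested 26 were higher and 5 lower (0.39), of the 14 genes of the mobile carriers and quinone synthesis 7 and 3 (0.31), and of the 17 genes of mitochondrial transcription and biogenesis 10 and 3 (0.39). Cytosolic ribosomal protein genes were mixed, with 41 higher and 19 lower of 87 (0.13). In CD8 T cells the mt- genes had a smaller median than the members, with 6 of 13 higher and 2 lower and a median of 0.13. In the lead were mt-Nd3 (0.50 ± 0.06) and mt-Nd2 (0.33), whereas mt-Nd6, the gene on the other strand, fell (-0.56 ± 0.12), as did mt-Co1 (-0.16). Cycling CD4 T cells had 11 of 13 mt- genes higher (median 0.46, background 31.9%) and cycling regulatory T cells 12 of 13 (0.54, background 30%). These medians were near those of the members (0.52 and 0.53). Cycling macrophages had 0 of 13 called in either direction (background 24.6% higher and 25.1% lower). In cycling NK cells only mt-Nd1 (0.40) and mt-Atp8 (0.56) were called, both higher (background 20.2% higher).

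Cycling cells held more UMIs, and the member share moved with the UMIs of a cell. Median UMIs were 4042, 3291 and 3241 in resting and 12269, 10990 and 10784 in cycling CD8 T cells. Within resting CD8 T cells of the mono-IL-10 library, the member share was 1.12% in cells of 1000 to 2500 UMIs, 1.31% at 2500 to 5000, 1.58% at 5000 to 10000 and 1.74% at 10000 to 20000. In cells of 5000 to 10000 UMIs, cycling CD8 T cells held 1.58, 1.78 and 1.61% and resting ones 1.58, 1.81 and 1.57%, which overlap. The cycling cells were still the deeper ones within that range, with median UMIs of 7974, 7587 and 7746 against 6117, 6037 and 5995. Cycling cells of 10000 to 20000 UMIs held 1.80, 2.05 and 1.95%. The macrophage marker list (10 genes, all with a UMI in 2 of the 3 libraries and 8 or 9 in the IL-10/2-Trikine library) stood at 106, 48 and 100 CPM in resting and 59, 24 and 53 in cycling CD8 T cells. How much of the cycling difference belongs to depth, RNA content or the cell cycle cannot be told apart here.

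**Figure D3:**
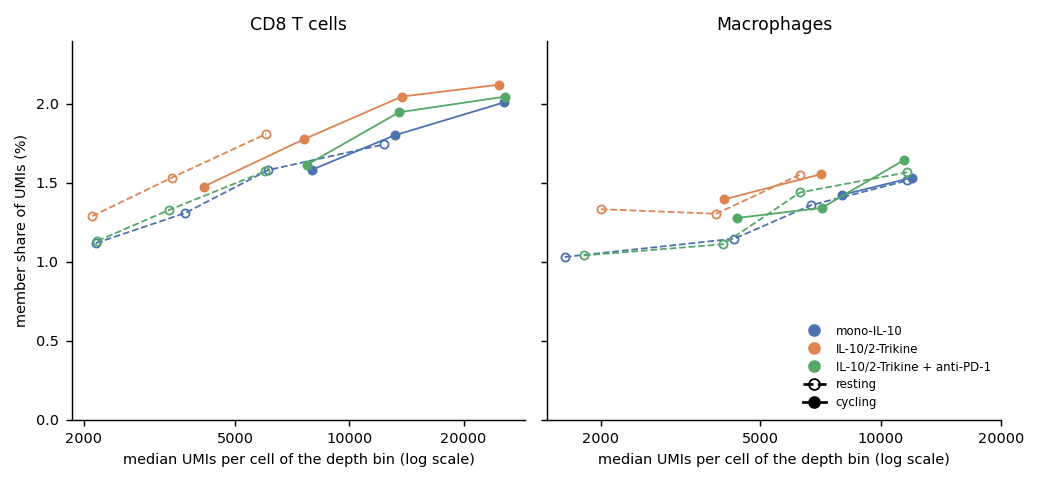
Share of UMIs held by the members, in percent on the vertical axis, against the median UMIs per cell of each depth bin on a log axis, for CD8 T cells (left) and macrophages (right); colours are libraries, dashed lines with open points resting cells and solid lines cycling cells, and bins of under 50 cells are left out. In CD8 T cells the share climbs with depth in both states, and at 5000 to 10000 UMIs resting CD8 T cells at 1.57 to 1.81% and cycling ones at 1.58 to 1.78% overlap.

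When the test was repeated on cells of 5000 to 10000 UMIs alone, a range chosen after seeing the data, 21 members were higher and 7 lower of 78 in cycling CD8 T cells, against a background of 22.5% higher and 21.2% lower, and the median was 0.05. Of the 64 members higher over all cells, 21 were still called higher, 2 were called lower and 41 were not called. The 3 lower members stayed lower. Members that kept a higher level included Ndufa5 (log2 ratio 0.56, 44.1, 43.2 and 38.1 against 48.7, 68.4 and 57.9 CPM), Ndufv1 (0.49), Ndufa4 (0.41), Ndufc2 (0.34), Sdhd (0.31) and Atp5b (0.24). Ndufa12 did not differ by the test (0.10, adjusted p = 0.47), and Atp5g1 turned to a lower level (-0.26, adjusted p = 0.0071). Cox7a2l stood at 346, 324 and 353 in resting and 221, 258 and 285 in cycling cells, with no overlap (-0.35, adjusted p = 5.9e-05). Uqcrh (-0.28), Ndufa6 (-0.33) and Ndufa13 (-0.35) were lower as well. In CD4 T cells, with the 2 libraries that had enough such cells, 12 of 77 members were higher (background 17.7%) and 5 lower (background 13.7%), with Cox7a2l at -0.46. In macrophages 24 of 79 were lower (background 24.0%) and 2 higher (Ndufa5 and Cox6b2, background 22.5%), with Uqcrh at -0.53 and Cox7a2l at -0.47. The lower levels of Cox7a2l, Uqcrh and Ndufa6 were called with and without the depth range in CD8 T cells, CD4 T cells and macrophages.

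**Figure D4:**
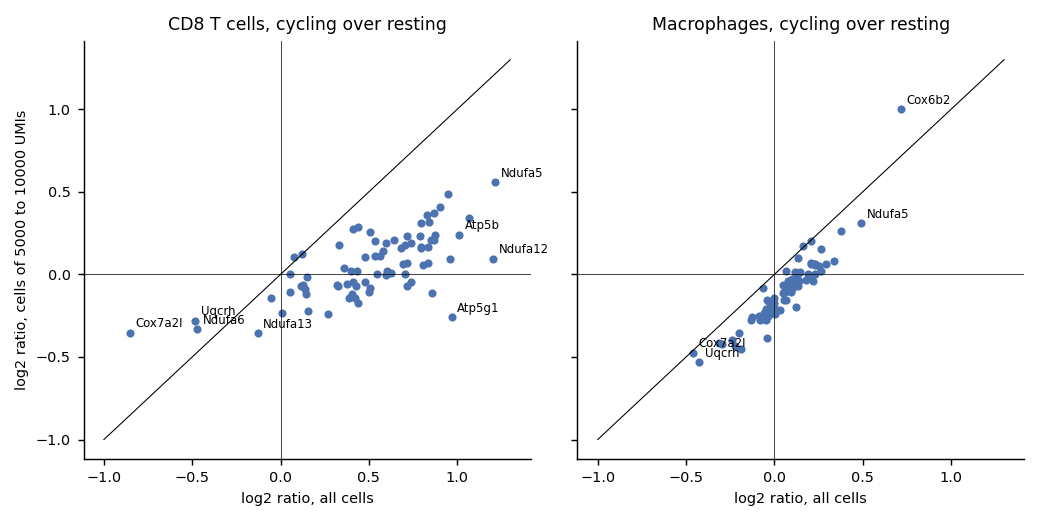
Log2 ratio of cycling over resting cells in all cells (horizontal axis) and in cells of 5000 to 10000 UMIs (vertical axis), each point 1 member, for CD8 T cells (left) and macrophages (right), with the line of equality. In CD8 T cells most members fall from about 0.5 on the horizontal axis to near 0 on the vertical axis, whereas Cox7a2l, Uqcrh and Ndufa6 stay below 0 on both.

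Monocytes held more of the members than macrophages. Of 83 members tested in monocytes over resting macrophages, 67 were higher and 2 lower (background 32.9% higher), with a median of 0.62 against -0.06 for all genes. With library totals in place of TMM factors, 46 were higher and 11 lower, and the medians were 0.28 for the members and -0.41 for all genes. In cells of 5000 to 10000 UMIs, 66 of 82 were higher and 3 lower (background 32.9% higher), and 66 of the 67 were shared. Monocytes were still the deeper cells in that range, with median UMIs of 7864, 6705 and 7558 against 6704, 6302 and 6286 in macrophages. Every complex took part, with 30 of 37 higher in complex I, 3 of 4 in complex II, 7 of 8 in complex III, 13 of 17 in complex IV and 14 of 17 in complex V.

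In complex I, Ndufb11, a subunit of the membrane arm, stood at 114, 106 and 104 CPM in resting macrophages and at 180, 198 and 193 in monocytes (1.16 ± 0.08, adjusted p = 1.0e-05). Ndufb1, another membrane arm subunit, went from 155, 174 and 148 to 260, 284 and 258 (1.09 ± 0.07). Atp5h, a stalk subunit of the ATP synthase, went from 222, 248 and 236 to 364, 402 and 385 (1.05 ± 0.07). Ranges of the 2 cell types did not overlap for any of these. Among the subunits that were not called, Sdha (-0.11), Ndufs1 (-0.07), Atp5g2 (0.11), Atp5g3 (0.09) and Atp5b (0.19, adjusted p = 0.065) are core or catalytic parts, whereas Ndufv1 (0.78), Uqcrfs1 (0.75) and Sdhd (0.75) rose. These ratios use TMM factors. In CPM, Atp5b was lower in monocytes than in resting macrophages in each library, so its direction depends on the scaling. Atp5g2 and Atp5g3, with smaller ratios than Atp5b, are therefore uncertain in direction too. With library totals the median of all genes was lower, as given above, so the ratios of Sdha and Ndufs1 hold for TMM factors only. The mt- genes were higher for 5 of 13 and lower for mt-Nd6. The mitochondrial ribosome had 47 of 78 genes higher and 14 lower (median 0.30) and the citrate cycle 8 and 1 of 13 (0.30). Transcription and biogenesis genes had 2 higher and 11 lower of 17 (-0.50), assembly factors 17 higher and 17 lower of 44, carriers and quinone synthesis 3 and 6 of 14, and cytosolic ribosomal proteins 69 and 3 of 88. The share of all genes called lower is not given for this comparison, so the counts of lower genes have no background beside them. Monocytes also held the macrophage marker list at 2358, 1725 and 2959 CPM, against 13976, 12050 and 13691 in macrophages.

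Between resting macrophages and resting CD8 T cells the members went both ways. Of 83 tested, 15 were higher in macrophages (background 36.8%) and 26 lower (background 35.8%), with a median of -0.13 and no excess over the background in either direction. Without the combination library 10 were higher and 16 lower. In complex II 3 of 4 were higher (median 0.40). Sdhc went from 61.8, 67.7 and 57.0 CPM in CD8 T cells to 98.9, 114 and 111 in macrophages (0.70 ± 0.09, adjusted p = 0.00013), Sdhb was higher by 0.51 and Sdhd by 0.30, while Sdha was not called (0.18, adjusted p = 0.074). Ndufc2, a subunit of the membrane arm of complex I, was higher in macrophages at 313, 320 and 294 against 139, 158 and 119 (1.07 ± 0.11). The lowest were Ndufb11 (220, 255 and 224 in CD8 T cells, log2 ratio -1.20 ± 0.12), Uqcrh (-0.93), Atp5h (-0.91), Ndufa13 (-0.73) and Ndufb7 (-0.71). The mt- genes gave 1 of 13 called, mt-Nd6 at -0.68. Carriers and quinone synthesis genes gave 9 higher and 2 lower of 14 (0.57), and cytosolic ribosomal proteins 7 and 71 of 88 (-0.73). T cell markers stood at 249, 587 and 345 CPM in the macrophages, against 8380, 7525 and 8460 in CD8 T cells.

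A few tissue-restricted isoforms set cell types apart. Cox4i2, the lung-type isoform of subunit IV of cytochrome c oxidase that is known from oxygen sensing, stood at 28.0, 31.7 and 29.6 CPM in resting and 25.4, 31.4 and 24.1 in cycling macrophages. In the other classes measured it was at most 2.21, below the 5.06, 3.01 and 3.85 CPM of barcodes under 100 UMIs, and resting CD8 T cells held 3, 3 and 1 of its UMIs in all, against 590, 197 and 469 in resting macrophages (adjusted p = 7.1e-08). Monocytes stood at 1.46, 2.07 and 0.815 CPM, below macrophages (adjusted p = 1.5e-06) and below that level of free RNA, so no fold is given. A cluster positive for C1qa and Cd3e that was left out had Cox4i2 among its leading genes. Its common partner Cox4i1 was between 464 and 746 in every class, so Cox4i2 was a small part of subunit IV transcripts in macrophages too.

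Cox6a2, the isoform of subunit VIa known from heart and skeletal muscle, was at 458, 601 and 454 CPM in plasmacytoid dendritic cells, from 207, 375 and 270 UMIs in 62, 98 and 89 cells, and at most 4.86 in the other classes measured. There it exceeded its common partner Cox6a1, which stood at 197, 221 and 187 in the same cells. UMIs of this 3′ assay count transcripts without a length factor, and this class was in no test. Siglech, which defines the class, was at 1074, 1052 and 1048 CPM, and the T cell marker list at 2226, 1232 and 1881. Barcodes under 100 UMIs held Cox6a2 at 2.64, 3.44 and 2.47 CPM, so its level in resting NK cells (2.31, 2.35 and 1.92) lay below that of free RNA and in resting macrophages (2.47, 3.7 and 2.65) close to it, and neither is read as expression. Cox6b2 was at most 8.78 CPM in every class measured, against 1.54, 2.15 and 1.28 in barcodes under 100 UMIs, and higher in macrophages than in CD8 T cells (5.08, 2.90 and 3.16 against 1.04, 1.29 and 1.08, the latter below free RNA) and in monocytes than in macrophages (1.05 ± 0.24). Cox7a1, the muscle isoform of subunit VIIa, was at most 3.36 in every class measured, and Ndufa4l2, known as a hypoxia-induced paralog of Ndufa4, had at most 4 UMIs in any class and library.

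**Figure D5:**
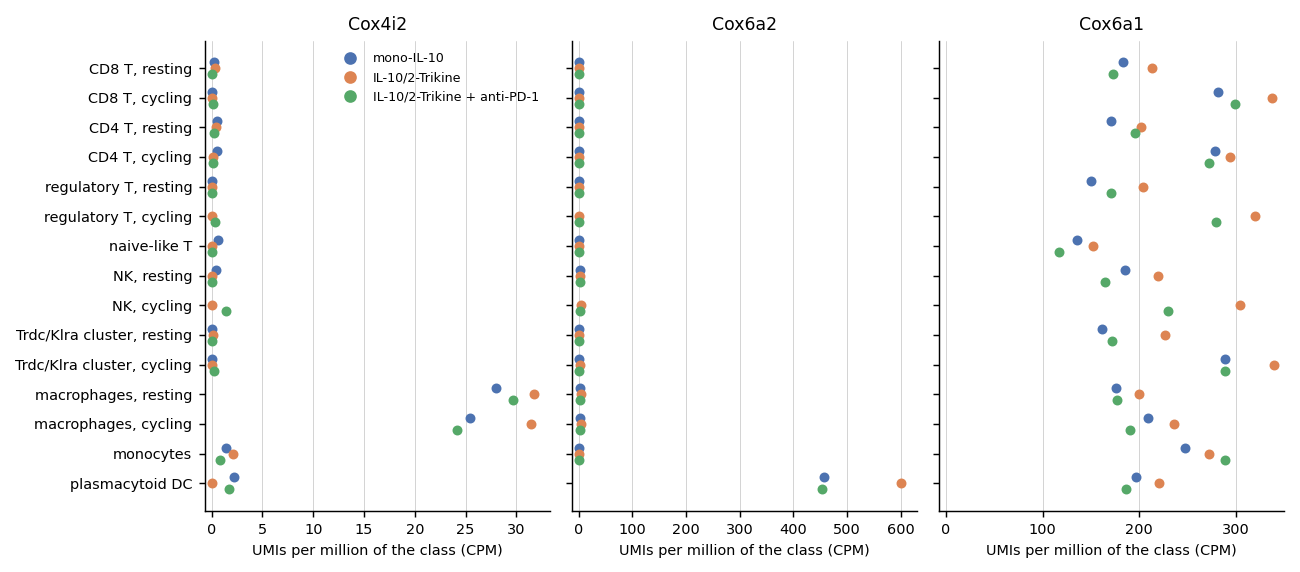
CPM of Cox4i2, Cox6a2 and Cox6a1 (horizontal axes, each on its own scale) for each class and library, each point 1 library. Cox4i2 is seen at 24.1 to 31.7 in macrophages and at most 2.21 in the other classes measured, Cox6a2 at 454 to 601 in plasmacytoid dendritic cells, and Cox6a1 in every class.

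Among lymphocytes at rest, NK cells lay slightly below CD8 T cells. Of 79 members tested, 3 were higher and 27 lower (background 21.4% lower), with a median of -0.14 against -0.02 for all genes. The share of all genes called higher is not given for this comparison, so the 3 higher calls have no background beside them. Ndufa10 stood at 106, 114 and 102 CPM in CD8 T cells and 55, 81.1 and 69.5 in NK cells (-0.60 ± 0.09), and Ndufb1 at 158, 176 and 139 against 93.3, 112 and 99.9 (-0.58 ± 0.08). Cox7a2l was lower as well (-0.50). The 3 higher members were Cox6a2 (2.12 ± 0.63, from 5, 6 and 7 UMIs in NK cells and 2, 12 and 3 in CD8 T cells, both at levels below that of free RNA), Uqcrb (0.21) and Ndufa4 (422, 568 and 464 against 384, 426 and 361, log2 ratio 0.35 ± 0.07, adjusted p = 0.0011), whose levels overlap between the classes. The count of lower members ran from 8 without the library block to 43 with mt- and ribosomal UMIs left out of the total, and it was 16 without the mono-IL-10 library.

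Naive-like T cells had lower levels of the nuclear genes and higher levels of the mitochondrial ones than resting CD8 T cells. The naive-like class was gated over all T cell clusters whatever the UMIs of Cd8a, Cd8b1, Cd4 and Foxp3. It is therefore not a CD8 class, and its cells were taken out of the other T subsets. Of 78 members tested, 0 were higher (0 at an unadjusted p under 0.05, and 0 by DESeq2) and 41 lower (background 10.8% lower), with a median of -0.44 against 0.02 for all genes. Complex IV had 10 of 13 lower, complex V 11 of 17, complex I 15 of 36, complex III 4 of 8 and complex II 1 of 4. Cox5b stood at 146, 161 and 158 CPM against 287, 333 and 288 (-1.01 ± 0.14, adjusted p = 4.8e-06) and Cox5a at 257, 320 and 315 against 513, 574 and 494 (-0.88 ± 0.13), and neither range overlapped. Ndufb7 (-1.0) and Ndufb8 (-0.77) of the membrane arm of complex I were lower too. The mt- genes gave 8 of 13 higher and 0 lower (median 0.43), led by mt-Nd2 (0.62 ± 0.12) and mt-Nd5 (0.55 ± 0.12), and cytosolic ribosomal proteins 59 of 86 higher (0.41). The share of all genes called higher is not given for this comparison, so the counts of higher genes have no background beside them. The medians of 0.43 for the mt- genes and 0.41 for the cytosolic ribosomal proteins stand beside 0.02 for all genes. The naive-like class had 775, 167 and 92 cells of 3525, 2678 and 3061 median UMIs. In cells of 2500 to 5000 UMIs, its member share was 1.05, 1.254 and 1.08%. DESeq2 called 25 lower, and 13 were lower after thinning each cell to a fixed depth.

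CD4 and CD8 T cells at rest differed in few members. Of 79, 4 were lower and 0 higher in Foxp3-negative CD4 T cells (background 10.6% lower), namely Ndufa9 (-0.36), Cox7a2l (-0.35), Ndufa6 (-0.33) and Atp5h (-0.30), and 4 were higher at an unadjusted p under 0.05. The share of all genes called higher is not given here. DESeq2 also called 0 higher in this comparison, and the 4 lower calls became 0 without the IL-10/2-Trikine library and 2 without the mono-IL-10 library. Of the mt- genes 5 of 13 were lower in CD4 T cells (median -0.20), from mt-Co1 (-0.21) to mt-Nd2 (-0.30), and 0 higher. Resting regulatory T cells differed from other CD4 T cells in 3 of 78 members (background 18.7% in either direction), with Ndufv2 (0.27) and Ndufa4 (0.26) higher and Atp5g1 lower (-0.25). Without the IL-10/2-Trikine or the combination library, and by DESeq2, 0 were called, where 10 had passed an unadjusted p of 0.05 by edgeR. Of the mt- genes, 9 of 13 were lower in regulatory T cells (median -0.22), from -0.20 for mt-Atp6 to -0.42 for mt-Nd2, and the summed mt- share was 1.26, 1.05 and 1.10% against 1.48, 1.24 and 1.23%.

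Treatments were compared within classes by CPM ratios, among genes with at least 200 UMIs in the pair of libraries, with a limit of 0.32 on the log2 scale for a gene to count as above or below, and intervals cover counting error only. In IL-10/2-Trikine over mono-IL-10, the median of the members lay above that of all genes in each lymphocyte class, and also in macrophages and monocytes. Counts past the limit stood above the background in only some lymphocyte classes. In resting NK cells 22 of 74 members were above this limit and 1 below, against a background of 7.66% of genes above, and the median was 0.25 on the log2 scale against -0.08 for all genes. In the cluster led by Trdc, Trgv1 and Klra genes, which was left unnamed, 36 of 76 were above and 1 below (background 10.5%, median 0.31). In resting CD8 T cells 2 of 76 passed it (background 5.25%), with a median of 0.15 against -0.10 for all genes, and with TMM factors of the pair 22 passed it (background 11.3% with those factors). The same factors raised the count to 46 in NK cells (background 15.4%) and to 66 in the Trdc and Klra cluster (background 23.8%). Naive-like T cells had 23 of 60 above and 1 below (background 20.2% above). Counts lay closer to the background or below it in the remaining T cell classes, with 9 of 76 above in resting CD4 T cells (background 8.46%), 1 of 77 in cycling CD8 (5.58%), 5 of 76 in cycling CD4 (10.4%) and 11 of 65 in resting regulatory T cells (12.1%). Resting macrophages had 0 of 78 past the limit in either direction (background 11.0% above and 7.29% below), with a median of 0.11 against 0.03 for all genes. Cycling macrophages had 3 above and 1 below of 77 (background 9.50% and 9.89%), with a median of 0.07 against 0.005 for all genes. Monocytes had 1 above and 1 below of 77 (background 7.58% and 8.63%), with a median of 0.09 against 0.005. Resting macrophages and resting NK cells lay closer in cells of 5000 to 10000 UMIs. The member median less that of all genes was there 0.21 in macrophages, with 17 of 77 above (background 10.8% in that range). It was 0.22 in NK cells, against 0.076 and 0.34 in all cells. This did not hold for all classes, as resting CD8 T cells went from 0.25 to 0.34 and monocytes from 0.081 to 0.13. Whether lymphocytes and macrophages differ was not tested. Examples in NK cells were Ndufb2, an accessory subunit of complex I, at 1.64-fold (95% interval 1.28 to 2.11), and Ndufs5 at 1.39-fold (1.10 to 1.75). Cytosolic ribosomal protein genes moved with the members in NK cells, with 37 of 81 above, as did the member share of barcodes under 100 UMIs, 1.55% against 1.23%.

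Adding anti-PD-1 to IL-10/2-Trikine went the other way in the same classes. In resting CD8 T cells 19 of 76 members were below and 0 above (background 8.14% below, median -0.24), in resting NK cells 31 of 76 were below and 0 above (background 8.24%, median -0.29), and in the Trdc and Klra cluster 16 of 76 were below and 0 above (background 8.26%, median -0.24; 37 below with TMM factors, background 13.8%). Both comparisons share the IL-10/2-Trikine library, so they are not independent. In resting CD8 T cells Ndufc1, a small complex I subunit, was at 0.695-fold (0.624 to 0.774) and Ndufs5 at 0.731-fold (0.662 to 0.807). Resting CD4 T cells had 1 above and 0 below of 76 (background 7.99% and 6.55%, median -0.04), and cycling CD8 T cells 1 and 0 of 77 (background 7.32% and 4.75%, median -0.11). Resting macrophages had 1 above and 2 below of 78 (background 5.15% and 6.46%, median -0.12), whereas cycling macrophages had 1 above and 9 below of 77 (background 8.26% and 5.36%, median -0.17). Monocytes had 4 above and 1 below of 76 (background 6.07% and 7.76%, median 0.02). The citrate cycle in resting CD8 T cells had 0 of 13 past the limit and the mt- genes 0 of 13, while the mitochondrial ribosome had 29 of 75 below.

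Atp5b, the catalytic subunit of the ATP synthase, departed from the other members. In resting CD8 T cells it stood at 319, 224 and 263 CPM, in resting macrophages at 324, 279 and 355, in resting NK cells at 254, 201 and 230, and in monocytes at 301, 225 and 343. The IL-10/2-Trikine library was the lowest of the 3 in each. Its ratio of IL-10/2-Trikine to mono-IL-10 was 0.701 (0.665 to 0.738) in resting CD8 T cells, 0.793 (0.702 to 0.896) in resting NK cells and 0.749 (0.712 to 0.788) in monocytes, the lowest ratio of all measured members in these classes. For the combination over IL-10/2-Trikine it was 1.17 (1.11 to 1.24), 1.14 (1.02 to 1.28) and 1.52 (1.45 to 1.6), the highest ratio of all measured members in these classes. With 1 library per group, the treatment and the library cannot be told apart for any of these ratios.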

How the data were processed

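The authors deposited 1 matrix of unfiltered counts for each library, made with Cell Ranger, with a row for each gene, a column for each barcode (empty droplets included) and whole UMIs as values. The assay was 10x 3′ gene expression. The file headers name Cell Ranger 8.0.0 and the methods another version. The submitters' processing notes name mm10 and the methods a newer build, so no gene coordinates come from the files; promoter coordinates are those of RefSeq on GRCm38.p6. Total UMIs per library limit precision, and intervals (95%) cover counting error only.

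Barcodes with at least 200 genes and at most 20% mt- UMIs were kept. Clustering used scanpy 1.11.5 and leidenalg 0.10.2 with 2000 variable genes, 30 components, 20 neighbors, resolution 1 and seed 1, without members, mt-, ribosomal and cell cycle genes, and gave 30 clusters named from marker lists. After seeing the clusters, T cell subset and gamma/delta receptor genes were counted as T cell markers, a cluster positive for C1qa and Cd3e and 2 clusters in which most cells were called doublets were left out, and 1 cluster led by Trdc and Klra genes was left unnamed. Other called doublets (14.4, 16.8 and 6.73% of cells) stayed in, with their removal as an alternative. Within T cell clusters, subsets were gated by UMIs of Cd8a or Cd8b1, Cd4 and Foxp3, and cells of the NK cluster with a Cd3 UMI were left out. Naive-like cells had UMIs of at least 2 of 3 naive T cell markers, not all of which are reported here. Classes needed cells of at least 1000 UMIs and 50 cells per library. Cells between the limits for resting and cycling were left out; 98, 150 and 97 CD8 T cells and 203, 124 and 278 macrophages lay near the cycling limit, beside 530, 1492 and 675 cycling CD8 T cells and 582, 373 and 674 cycling macrophages. Cells of other named classes (2966, 2677 and 1760) and of the other unnamed clusters were not measured.

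UMIs were summed per class and library and tested with edgeR 4.0.16 (quasi-likelihood, TMM, filterByExpr, library as a block, Benjamini-Hochberg over all genes tested), in 11 comparisons and 2 interactions. Values after ± are standard errors derived from the log2 ratio and the F statistic of the edgeR fit. That fit shares the spread over genes, so they are not the spread over the libraries. Alternatives included DESeq2 1.42.0. The scripts were tested on simulated data. Named are the 5 highest and 5 lowest members of each comparison and a fixed list of core subunits and isoforms; others named in a count of 6 or fewer, in the depth range, and Cox7a2 and Ndufs5 were chosen after their values were seen. Members and lists were chosen with earlier results of these data known.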

Additional observations from a re-analysis of the deposited data

Results flagged for a closer look

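A difference between lineages under the same contrast led to a closer look at the cycling effect in macrophages and CD8 T cells. The interaction test found a lower cycling ratio in macrophages than in CD8 T cells for 57 of 83 members and a higher one for 3. Beside this, 15.6% of all genes were lower, and the share of all genes called higher is not given. In cells of 5000 to 10000 UMIs alone the counts were 23 lower and 0 higher of 80, beside 12.8% of all genes lower, and 17 of the 57 were called lower there. Median UMIs were 4042, 3291 and 3241 in resting and 12269, 10990 and 10784 in cycling CD8 T cells, and the part of this depth difference in the result was not tested beyond that range.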

How the results depend on the processing

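No paired analysis was possible because the labels give no replicate numbers that pair treatments, each of which is 1 library. Class comparisons are paired within a library by the library block, and a fit without it is among the alternatives. Each value here is a count of members called unless named otherwise, and no share of all genes is given beside it. Cells of 5000 to 10000 UMIs gave 21 higher members in cycling CD8 T cells, 12 in cycling CD4 T cells and 2 in cycling macrophages, where the balance turned to lower, as it did with a cycling limit of 1% (1 higher and 17 lower). In that depth range 9 members were lower in NK cells, 2 lower in CD4 against CD8 T cells, 0 higher in regulatory against CD4 T cells, where the direction turned, and 23 lower in the macrophage interaction. There Atp5g1 in cycling CD8 T cells turned to -0.26 and the interaction of Cox7a2l to -0.21 (log2). Thinning each cell to 1000 UMIs gave 29 higher in cycling regulatory T cells, 8 in cycling NK cells, 13 in cycling macrophages, and 11 lower in NK, 13 in naive-like cells and 16 in the interaction. DESeq2 gave 18 higher in cycling NK cells, 12 in cycling macrophages, 14 lower in NK cells, 25 in naive-like cells and 0 in regulatory T cells. Without the library block there were 6 higher in cycling macrophages, 8 lower in NK, 27 in naive-like, 0 in CD4 against CD8 and 0 in regulatory T cells. Library totals, and totals without mt- and ribosomal UMIs, both gave 41 in cycling macrophages, and the latter 43 lower in NK cells. No filter on low counts left 1 higher in regulatory T cells. Leaving out 1 library in turn gave 16 to 26 lower in macrophages against CD8 T cells, 16 to 19 in NK cells, 0 to 4 in CD4 against CD8 T cells and 0 to 3 higher in regulatory T cells. The cause of these shifts was not tested.

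For IL-10/2-Trikine over mono-IL-10, the member median less that of all genes (log2) became 0.23 in resting CD8 T cells and 0.21 in CD4 T cells after thinning. In the depth range it was 0.34 in resting CD8, 0.25 in cycling CD8, 0.22 in NK cells, 0.21 in macrophages and 0.13 in monocytes. For the combination over IL-10/2-Trikine, thinning gave -0.069 in cycling CD8 T cells and -0.20 in macrophages, and the depth range -0.18 in cycling CD8, -0.11 in CD4 and -0.19 in NK cells. The mean member share with mt- and ribosomal UMIs left out of the total was 1.76% in resting and 2.28% in cycling CD8, 1.74 and 2.26% in CD4 T cells, 1.53% in NK, 1.48% in naive-like cells, 1.55% in resting and 1.66% in cycling macrophages and 1.82% in monocytes. As a mean over cells it was 1.80% in cycling CD8, 1.37% in resting CD4 and 1.80% in cycling CD4 T cells. In the depth range it was 1.65% in resting and 1.66% in cycling CD8, 1.59% in CD4 T cells, 1.52% in NK cells and 1.45% in macrophages. Of the values that answer a comparison, 233 kept their direction and size class, 60 moved and 3 turned. The depth range was not run for cycling regulatory T and NK cells, naive-like cells and the NK interaction, the 1% limit not for the NK comparisons, and leaving out a library not where only 2 libraries entered.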
